A study of Mus musculus with 9 samples.

Results

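A set of 10 genes whose mRNAs the mouse oocyte makes and stores were followed in 8-cell embryos: *Gdf9*, *Bmp15*, *Zp2*, *Zp3*, *Mos*, *Dazl*, *Npm2*, *Zar1*, *Btg4* and *Oosp1*. They were chosen by name, as oocyte genes whose transcripts are thought to be cleared early in cleavage. The choice was made with earlier results of these data known. All 10 were found among the 55335 entries of the expression table of each library. The embryos came from in vitro fertilization with ICR mice and were injected as zygotes with siRNA against *Mfn1* (MFN1-KD), with siRNAs against both H3.3 genes, *H3f3a* and *H3f3b* (H3.3-KD), or with a nontargeting siRNA (control), then cultured to the 8-cell stage. All 3 groups thus shared the fertilization, the injection and the culture. Each group had 3 libraries, each a pool of 5 to 10 embryos per the labels, amplified by Smart-Seq2 from an oligo-dT primer, and levels were deposited as FPKM (fragments mapped to a gene, scaled to its length and to the mapped fragments of the library), a unit that allows levels of different genes to be compared. The sources do not tie the pools to separate fertilizations, so the p-values measure the spread between these libraries, which may be partly technical. An siRNA lowers a transcript and does not delete its gene.

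As background, a growing oocyte transcribes and stores mRNA, and then falls silent. Stored mRNAs are held with short poly(A) tails and are translated as the oocyte matures, many of them through cytoplasmic polyadenylation elements in their 3′ UTR. After meiotic maturation and fertilization most are deadenylated and degraded, first by maternal factors and then with the help of products of the embryo's own genome. The 10 genes hold several stages of this life: GDF9 and BMP15 are growth factors that the oocyte secretes to its follicle cells, ZP2 and ZP3 build the zona pellucida, MOS starts the kinase cascade that holds the egg in metaphase II, DAZL activates translation of stored mRNAs, ZAR1 takes part in storing them, BTG4 recruits the CCR4-NOT deadenylase to them, and NPM2 is an oocyte nucleoplasmin that remodels chromatin after fertilization. OOSP1 is a secreted oocyte protein.

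The targeted transcripts went with the labels. *Mfn1* was 9.54, 4.4 and 1.15 FPKM in MFN1-KD replicates 1 to 3 against 51.57, 22.55 and 23.77 FPKM in control, and the mean of *H3f3a* was 149 FPKM in H3.3-KD against 1932 FPKM in control, and that of *H3f3b* 246 FPKM against 2988 FPKM. Between 21643 and 22507 entries were above 0 in control libraries, 23655 to 24820 in H3.3-KD and 15577 to 20842 in MFN1-KD, with the lowest number in MFN1-KD replicate 3. The summed level of 12 markers of the cleavage-stage embryo was 144.5 to 231.9 FPKM in control, 195.2 to 226.2 FPKM in MFN1-KD and 665.7 to 959.1 FPKM in H3.3-KD, where 5 of the 11 tested were higher, *Pou5f1* and *Klf17* among them (3 with upper-quartile scaling). Of all genes tested, 21.8% were higher in H3.3-KD, and 12.7% with that scaling. Most of the rise of the cleavage-stage sum was *Pou5f1* and *Klf17*. From control to H3.3-KD the mean of *Pou5f1* went from 7.24 to 261.8 FPKM, and that of *Klf17* from 36.9 to 283.5 FPKM. Of the 11 cleavage-stage markers tested, 4 had differences below 0 on the log2 scale there, and none was called lower. The summed level of 10 markers of the 2-cell stage ranged from 6.76 to 18.91 FPKM in control, 18.9 to 77.9 FPKM in MFN1-KD and 11.21 to 117 FPKM in H3.3-KD. The 15 cumulus and granulosa cell markers summed to 16.93 to 31.13 FPKM in control, 10.62 to 19.91 FPKM in MFN1-KD and 39.51 to 67.9 FPKM in H3.3-KD, almost all of it *Amhr2*. That gene was called higher in H3.3-KD (1.11, adjusted p = 0.0327, limma). It was not called with median-ratio (adjusted p = 0.0804) or upper-quartile scaling (adjusted p = 0.167, limma). From 5 to 12 of the 15 were at 0 in a library. The defining *Fshr*, *Cyp11a1*, *Lhcgr* and *Inhba* were listed at 0 in every library, whereas *Amh* was at 0 in all control and MFN1-KD libraries and 0.05 to 0.27 FPKM in H3.3-KD, and *Foxl2* was at most 0.01 FPKM in control and 0.05 to 0.55 FPKM in H3.3-KD. Sperm markers summed to at most 2.97 FPKM in any library. The part of these markers in the results that follow was not tested.

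In control embryos the 10 transcripts together gave 77.41, 82.65 and 78.55 FPKM in replicates 1 to 3, and 3 of them made up most of it. *Npm2* was the most abundant at 29.7 ± 3.35 FPKM (SD, n = 3), rank 2974 of the 26632 entries above 0 by group mean, and gave 37.4% of the summed group means. *Oosp1* gave 22.7% and *Zp3* 15.9%. *Btg4* followed at 8.72 ± 3.53 FPKM, and the other 6 had means from 0.703 FPKM (*Mos*) to 2.70 FPKM (*Gdf9*). Of the 9 pairs of neighbours in this order, 8 overlapped between libraries, and only *Btg4* and *Gdf9* stood clear of each other. In both knockdowns the make-up of the sum was different. In MFN1-KD the sum was 69.48, 97.75 and 50.48 FPKM, and *Zp3*, *Dazl* and *Npm2* gave nearly equal shares of 20.6%, 20.4% and 20.3%. In H3.3-KD it was 63.83, 137.6 and 101.3 FPKM, with *Btg4* at 28.1%, *Zp3* at 19.9%, *Dazl* at 16.7% and *Npm2* at 13.3%. Replicate 2 alone put *Btg4* first: without it the shares were 11.5% for *Btg4*, 23.8% for *Zp3*, 23.6% for *Dazl* and 17.9% for *Npm2*. *Dazl* gave 2.53% of the control sum. All 9 neighbouring pairs overlapped in MFN1-KD and 8 of 9 in H3.3-KD, where *Gdf9* stood clear of *Zar1*. Because each library pools whole embryos, fewer cells that hold a transcript and less of it per cell cannot be told apart, and neither can stored RNA and newly made RNA. The libraries were primed from poly(A) tails, so a change in the amount of a transcript and in its tail length cannot be told apart either.

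**Figure D1:**
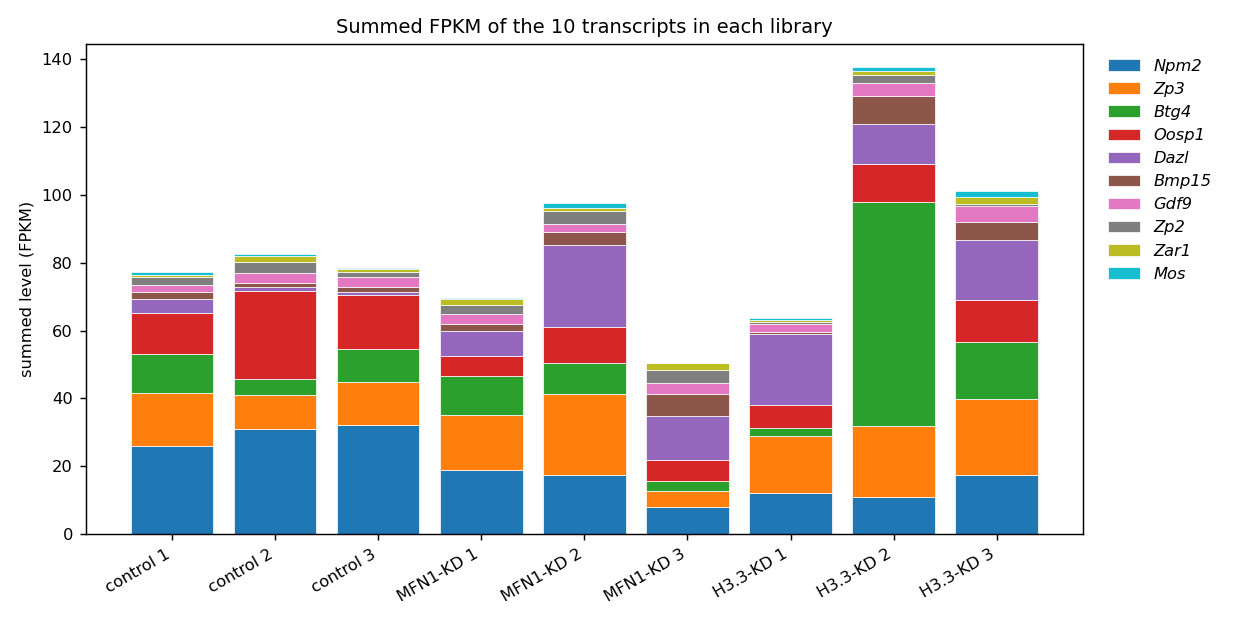
Summed level (FPKM, vertical axis) of the 10 transcripts in each of the 9 libraries, with the members stacked by colour. Control libraries lie between 77.41 and 82.65 FPKM, *Dazl* is a thin band in them and a broad one in all 6 knockdown libraries, and *Btg4* fills 66.1 FPKM of H3.3-KD replicate 2.

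*Dazl* showed the largest change of the set, and it was higher in all 6 knockdown libraries than in any control library. Of all genes tested, 11.4% lay above control without overlap after *Mfn1* knockdown and 34.5% after H3.3 knockdown. The gene encodes a germ cell RNA-binding protein that binds 3′ UTRs and promotes translation (ENSMUSG00000010592.9, minus strand, chr17:50279395-50293636 in GRCm38). It was 4.07, 0.98 and 0.99 FPKM in control replicates 1 to 3, 7.28, 24.21 and 12.98 FPKM in MFN1-KD, and 21.15, 11.76 and 17.76 FPKM in H3.3-KD. Control replicate 1 was about as far above the other control libraries as it was below the lowest knockdown library, and the spread of *Dazl* in control, an SD of 0.781 on the log2 scale, was wider than that of 94.5% of the genes tested. The mean rose to 14.8 ± 8.61 FPKM in MFN1-KD, 736% of control, and to 16.9 ± 4.76 FPKM in H3.3-KD, 839% of control. Without control replicate 1 these shares were 1505% and 1715%. By group mean it moved from rank 9837 in control to rank 4363 of 24043 entries above 0 in MFN1-KD and rank 4906 of 29194 in H3.3-KD.

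Differences were tested with limma on log2(FPKM + 1) over the 13011 genes whose mean reached 1 FPKM, with all 9 libraries in the fit and p-values adjusted by Benjamini-Hochberg over all of them. A fold on this scale understates the change of low genes. *Dazl* was higher by 2.40 ± 0.498 (log2 difference ± SE) in MFN1-KD, with an adjusted p of 0.0382, and by 2.68 ± 0.498 in H3.3-KD, with an adjusted p of 0.00299. It was the only one of the 9 tested members called in MFN1-KD, where 3.35% of all genes were called, 1.15% higher and 2.20% lower. Below, genes with an unadjusted p under 0.05 are also counted for lists in MFN1-KD. Of all genes there, 5.02% higher and 9.05% lower had such a p and a change of more than 2-fold. Without the fold limit the share is at least as large, so these counts are a description. In H3.3-KD 1 member was called higher and 1 lower, against 31.0% of all genes called, 21.8% being higher and 9.12% lower. That split moved with the scaling of the libraries: it was 16.3% higher and 13.5% lower with median-ratio scaling and 12.7% and 16.0% with upper-quartile scaling, and calls lost with either are given beside the gene. The rise in H3.3-KD remained past the threshold without any one of the 9 libraries, with a highest adjusted p of 0.0186. The MFN1-KD call did not: it held only without MFN1-KD replicate 1, and without any other library the adjusted p was 0.0513 to 0.162, although the log2 difference stayed between 1.99 and 2.85. The 2 knockdowns share their control libraries, and set directly against each other they differed in *Dazl* by 0.29 (95% interval -0.82 to 1.39, adjusted p = 0.681, limma).

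**Figure D2:**
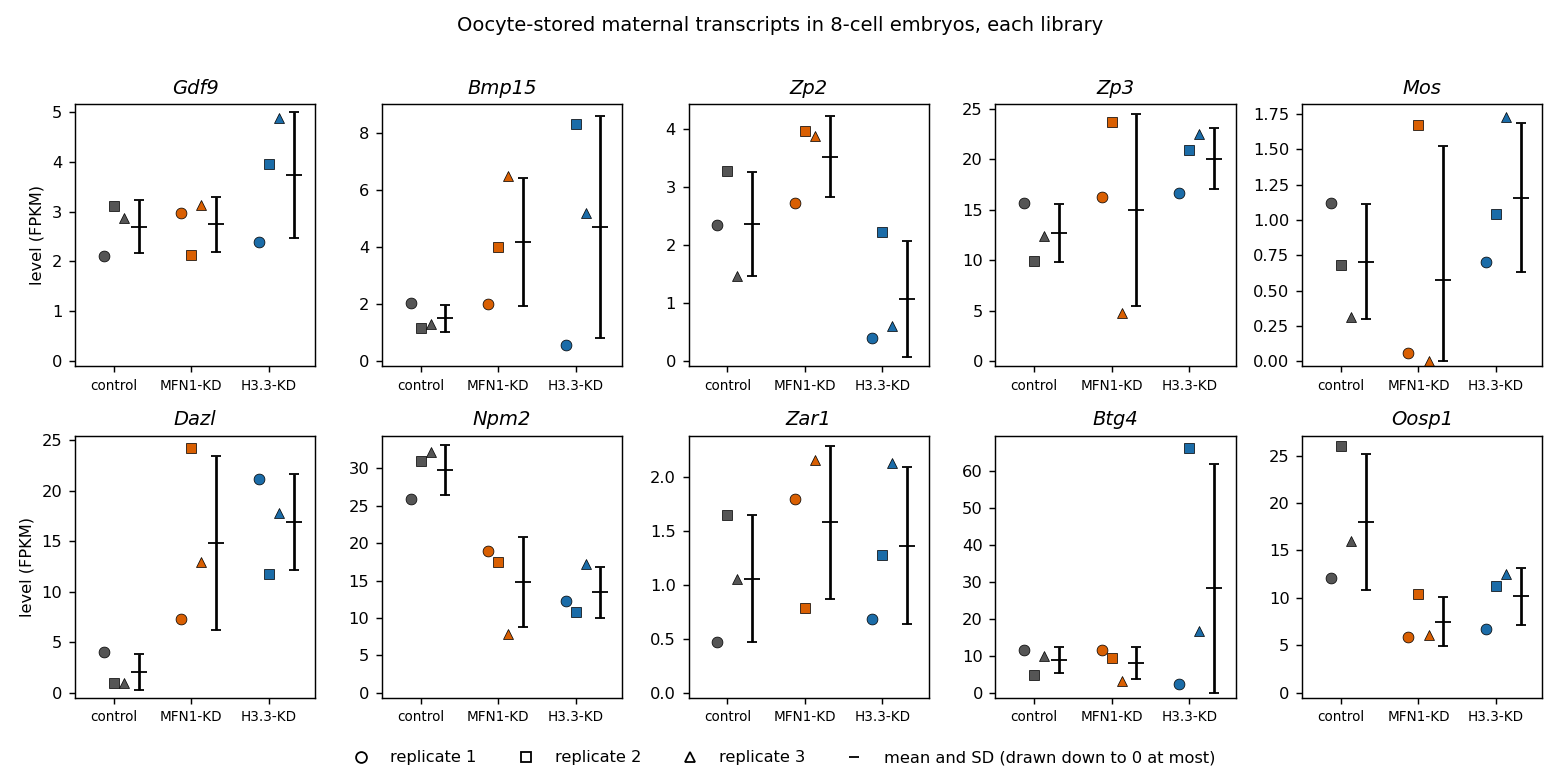
Level (FPKM, vertical axes from 0, each on its own scale) of the 10 transcripts in the 3 groups, with a symbol for each replicate and, beside it, the mean and SD of the 3 libraries. *Dazl* is at most 4.07 FPKM in control and at least 7.28 FPKM in both knockdowns, *Npm2* is at least 25.94 FPKM in control and at most 18.94 FPKM in both, and *Btg4* in H3.3-KD spans 2.29 to 66.1 FPKM.

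The promoters of *Dazl* and *Btg4* are shown because they stand far apart in CpG content among the 6 members with a window in the RefSeq promoter table (GRCm38.p6, 250 bases before to 50 after the start). The count of CpG was made after the expression values had been seen. The *Dazl* window (chr17:50293571-50293870, minus strand) holds 28 CpG dinucleotides, more than 85.8% of the 32851 windows, and the *Btg4* window (chr9:51115751-51116050, plus strand) holds 1. The *Btg4* window lies inside the GENCODE M21 gene (chr9:51060901-51119875) and not at its annotated start, which the windows of the other members hold. Whether these embryos use that inner start was not tested. Both windows are printed 5′ to 3′ with each CpG in capitals.
Dazl: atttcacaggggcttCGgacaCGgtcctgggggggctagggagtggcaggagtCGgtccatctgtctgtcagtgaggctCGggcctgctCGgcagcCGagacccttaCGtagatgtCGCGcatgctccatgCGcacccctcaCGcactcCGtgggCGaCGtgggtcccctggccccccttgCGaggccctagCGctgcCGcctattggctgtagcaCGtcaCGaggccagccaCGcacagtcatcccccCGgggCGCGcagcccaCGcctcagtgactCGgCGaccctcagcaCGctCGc
Btg4: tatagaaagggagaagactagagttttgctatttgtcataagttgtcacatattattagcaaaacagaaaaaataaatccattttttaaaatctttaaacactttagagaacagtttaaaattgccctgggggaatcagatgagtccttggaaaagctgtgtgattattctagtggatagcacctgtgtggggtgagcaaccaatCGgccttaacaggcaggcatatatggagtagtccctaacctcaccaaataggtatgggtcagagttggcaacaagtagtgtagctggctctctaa
The other 4 windows held 17 (*Zar1*), 7 (*Zp3*), 5 (*Oosp1*) and 2 (*Bmp15*), and the median of all windows was 7. An E-box, CANNTG, which reads the same pattern on both strands and which the oocyte factor FIGLA binds in zona pellucida genes, was present in 6 of 6 windows and in 72.3% of all windows, most often in *Oosp1* (5) and *Zp3* (4). TAATTG or TAATTA on either strand, the element bound by the oocyte homeobox factor NOBOX, was found in 1 of 6, *Bmp15*, and in 12.4% of all windows. Neither pattern contains the other.

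*Npm2* moved the other way, and every knockdown library lay below every control library, as did 16.8% of all genes tested after *Mfn1* knockdown and 18.9% after H3.3 knockdown. It lies on the minus strand of chr14:70647302-70659244 (ENSMUSG00000047911.6). The level was 25.94, 31.04 and 32.25 FPKM in control, 18.94, 17.49 and 7.86 FPKM in MFN1-KD, and 12.21, 10.81 and 17.27 FPKM in H3.3-KD. The means were 14.8 ± 6.02 FPKM in MFN1-KD, 49.6% of control, and 13.4 ± 3.40 FPKM in H3.3-KD, 45.2% of control. The log2 difference in H3.3-KD was -1.11 ± 0.349 with an adjusted p of 0.0344 (limma), and without each of the 3 control libraries or H3.3-KD replicates 1 or 2 the adjusted p was 0.0563 to 0.114. In MFN1-KD it was -1.05 (95% interval -1.82 to -0.27), with an adjusted p of 0.113. The knockdowns differed from each other by -0.07 in *Npm2* (adjusted p = 0.904, limma). An exon of *Npm2* overlaps one of *Xpo7* on the same strand, and *Xpo7*, an exportin, was 2.12 to 4.06 FPKM in control and 14.56 to 17.25 FPKM in H3.3-KD. It was higher there by 2.12 (adjusted p = 0.00179, limma). In MFN1-KD *Xpo7* was 3.28, 5.97 and 2.33 FPKM and overlapped control. Reads of the shared stretch may be split between both genes, and the part of this in the *Npm2* values was not tested. Of the other nucleoplasmins, *Npm3* was 1.42 to 2.57 FPKM in control and 43.81 to 72.03 FPKM in H3.3-KD, higher by 4.38 (adjusted p = 5.59e-05, limma), and *Npm1* was not called. In MFN1-KD neither was called, and neither had an unadjusted p under 0.05.

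*Oosp1* was the second most abundant member in control and had a lower mean in both knockdowns, without a call in either. It lies on the minus strand of chr19:11667460-11691150 (ENSMUSG00000041857.10). Its level was 12.09, 26.02 and 16.01 FPKM in control, 5.92, 10.44 and 6.06 FPKM in MFN1-KD, and 6.74, 11.25 and 12.48 FPKM in H3.3-KD. MFN1-KD lay below control without overlap, as it did for 16.8% of all genes tested, whereas H3.3-KD replicate 3 lay above control replicate 1. The log2 difference was -1.14 (adjusted p = 0.109) in MFN1-KD and -0.75 (adjusted p = 0.159) in H3.3-KD, and it was called in H3.3-KD only with upper-quartile scaling (-1.23, adjusted p = 0.028, limma). The study's methods state a rule of more than 2-fold with an unadjusted p under 0.05, used there on Deseq2 results. Applied here to the limma fit, it took *Npm2* and *Oosp1* as lower in MFN1-KD and *Dazl* as higher. These are not the study's own calls. The same rule took 9.05% of all genes as lower and 5.02% as higher in that comparison. In H3.3-KD it took *Dazl* as higher and *Npm2* as lower, against 23.9% and 9.39% of all genes.

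**Figure D3:**
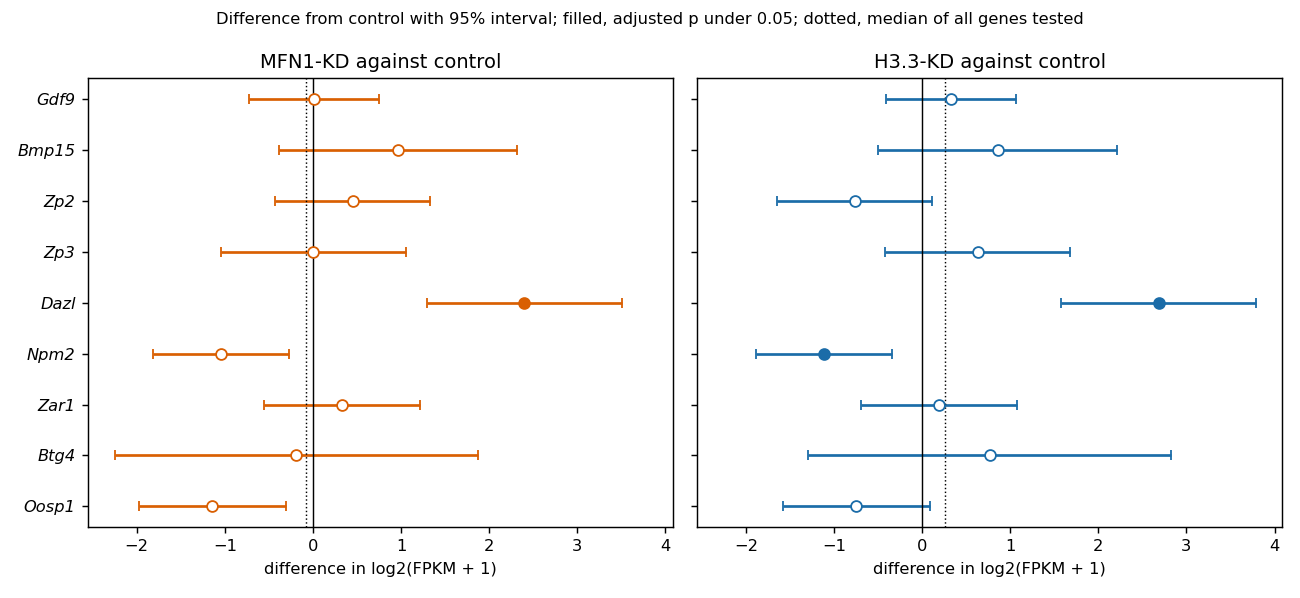
Difference from control in log2(FPKM + 1) (horizontal axes) with its 95% interval for the 9 members tested, in MFN1-KD (left) and H3.3-KD (right). Filled points are *Dazl* in both panels and *Npm2* in H3.3-KD, with adjusted p under 0.05, and the dotted line is the median of all genes tested, -0.08 on the left and 0.26 on the right.

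No zona pellucida gene was called against control in either knockdown. *Zp3*, which encodes a structural glycoprotein of the zona matrix (ENSMUSG00000004948.12, plus strand, chr5:135980099-135988624), was 15.65, 9.96 and 12.45 FPKM in control, 16.3, 23.7 and 4.81 FPKM in MFN1-KD, and 16.71, 20.91 and 22.56 FPKM in H3.3-KD. All H3.3-KD libraries lay above all control libraries, as they did for 34.5% of all genes tested, and the log2 difference of 0.63 was not called (adjusted p = 0.338). MFN1-KD spread on both sides of control, and its difference was 0.01 (95% interval -1.04 to 1.05). *Zp2*, whose product is cleaved after fertilization (ENSMUSG00000030911.7, minus strand, chr7:120126772-120145291), was 2.35, 3.27 and 1.47 FPKM in control, 2.72, 3.97 and 3.87 FPKM in MFN1-KD, and 0.4, 2.22 and 0.6 FPKM in H3.3-KD. H3.3-KD lay below MFN1-KD without overlap, as it did for 14.8% of all genes tested, while both overlapped control. Neither was called against control, at 0.45 (adjusted p = 0.533) and -0.76 (adjusted p = 0.171). Set against each other, *Zp2* was lower in H3.3-KD by 1.21 on the log2 scale (-1.21, 95% interval -2.10 to -0.33, adjusted p = 0.0338, limma), and it was the only member called in that comparison, where 38.6% of all genes were called and 11.0% were lower. That call was lost without control replicate 1, MFN1-KD replicates 2 or 3 or H3.3-KD replicates 1 or 3, with adjusted p from 0.0503 to 0.119.

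The oocyte growth factors were low throughout. *Gdf9* (ENSMUSG00000018238.6, plus strand, chr11:53431023-53437904) was 2.11, 3.11 and 2.88 FPKM in control, 2.97, 2.12 and 3.14 FPKM in MFN1-KD, and 2.38, 3.96 and 4.88 FPKM in H3.3-KD. All 3 groups overlapped. The difference was 0.02 (95% interval -0.72 to 0.75) in MFN1-KD and 0.33 (adjusted p = 0.484) in H3.3-KD. *Bmp15* (ENSMUSG00000023279.7, minus strand, chrX:6314107-6320721) was 2.03, 1.16 and 1.32 FPKM in control, 2.01, 4.01 and 6.49 FPKM in MFN1-KD, and 0.57, 8.32 and 5.2 FPKM in H3.3-KD. Most knockdown libraries were above control, but MFN1-KD replicate 1 fell inside the control range and H3.3-KD replicate 1 below it, and the differences of 0.97 (adjusted p = 0.378) and 0.86 (adjusted p = 0.313) were not called. Without H3.3-KD replicate 1 the latter was 1.62, with an adjusted p of 0.0309 (limma). Of 10 receptors and SMADs listed for 1 or both of these ligands, 6 were tested. None was called in MFN1-KD, where 1 had an unadjusted p under 0.05 (limma). In H3.3-KD 1 of the 6 was higher and 1 lower, beside 21.8% and 9.12% of all genes. *Smad2*, an intracellular effector, was higher by 0.97 (adjusted p = 0.0223, but 0.0825 with median-ratio and 0.225 with upper-quartile scaling, limma). *Tgfbr1*, a type I receptor that GDF9 uses, was lower by 1.06 on the log2 scale (-1.06, adjusted p = 0.0235, limma).

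*Mos*, the kinase of the cytostatic factor (ENSMUSG00000078365.5, minus strand, chr4:3870657-3872105), was the least abundant member and lay under the filter of 1 FPKM, with a mean of 0.812 FPKM over the 9 libraries. It was 1.12, 0.68 and 0.31 FPKM in control, 0.06, 1.67 and listed at 0 in MFN1-KD, and 0.7, 1.04 and 1.73 FPKM in H3.3-KD. The groups overlapped, and the 2-sided exact permutation test gave p = 0.7 for MFN1-KD and p = 0.4 for H3.3-KD, where the smallest p that 3 against 3 allows is 0.1. The 8 tested genes of the cascade and of cytostatic arrest had a median difference of 1.38 in H3.3-KD, against 0.26 for all genes. Of these 8, 4 were higher there, beside 21.8% of all genes. Among them were *Map2k2*, higher by 1.97, *Rps6ka1* by 1.73 and *Cdc20*, the activator of the anaphase-promoting complex, by 1.25, with adjusted p from 0.000372 to 0.00975 (limma). In MFN1-KD none of the 8 was called, and 3 had an unadjusted p under 0.05. With median-ratio and upper-quartile scaling 1 more was called lower in each knockdown: *Cdc20* in MFN1-KD (-1.13 with both, adjusted p = 0.0372 and 0.0408, limma) and *Rps6ka3*, named after its values were seen, in H3.3-KD (-1.13 and -1.28, adjusted p = 0.0345 and 0.0266, limma).

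*Btg4* was the least even of the 9 tested members in H3.3-KD, while *Dazl* was in control and *Zp3* in MFN1-KD. *Btg4* lies on the plus strand of chr9:51060901-51119875 (ENSMUSG00000032056.10). It was 11.58, 4.78 and 9.81 FPKM in control, 11.48, 9.35 and 3.11 FPKM in MFN1-KD, and 2.29, 66.1 and 16.66 FPKM in H3.3-KD. H3.3-KD replicate 1 was below every control library and replicate 2 was 28.9 times as high as replicate 1, so that the SD of 2.18 on the log2 scale was wider than that of 99.0% of the genes tested in that group. The same replicate 2 held the highest *Bmp15* of its group, and the highest summed level of the 2-cell markers, 117 FPKM. The difference of 0.77 (95% interval -1.29 to 2.83) was not called, and without replicate 2 it was -0.28. In MFN1-KD it was -0.19 (95% interval -2.25 to 1.87, adjusted p = 0.937). *Zar1* (ENSMUSG00000063935.3, minus strand, chr5:72576806-72581254) was 0.47, 1.65 and 1.06 FPKM in control, 1.8, 0.79 and 2.16 FPKM in MFN1-KD, and 0.68, 1.28 and 2.13 FPKM in H3.3-KD. All 3 groups overlapped, and the differences of 0.33 (adjusted p = 0.669) and 0.19 (adjusted p = 0.750, limma) were not called.

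The ends of the 3′ UTRs are shown because cytoplasmic polyadenylation of a stored mRNA depends on a pair of elements near its end, the AATAAA or ATTAAA hexamer and the cytoplasmic polyadenylation element TTTTAT or TTTTAAT. In the last 100 bases of the GENCODE M21 transcript (GRCm38, on the strand of the gene), the polyadenylation element was present in 2 of 10 members, *Gdf9* and *Btg4*, and in 17.8% of 19403 genes, and a hexamer in 78.5% of those genes. *Zp2* and *Zp3* have 3′ UTRs of only 49 and 13 bases, which were searched whole. Stretches of 30 bases follow, 5′ to 3′, with both elements in capitals, from *Dazl* and *Npm2* as the members that were called, from *Gdf9* as the one that holds both elements, and from *Btg4* for its polyadenylation element.
Dazl: acctatttccttgtatacacgAATAAAacc
Npm2: agcaagctcgcctagggccacAATAAAatt
Gdf9: tgtggTTTTATgtgacggaagAATAAActg
Btg4: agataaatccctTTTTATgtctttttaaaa
The hexamers of *Dazl*, *Npm2* and *Gdf9* start 21, 20 and 23 bases from the end. The 3′ UTRs of the 10 members run from 13 to 1852 bases, that of *Dazl* being the longest. Within these windows the called members *Dazl* and *Npm2* hold the hexamer and not the polyadenylation element. So do *Bmp15*, *Zp2*, *Mos*, *Zar1* and *Oosp1*, none of them called against control, while *Zp3* and *Btg4* hold no hexamer.

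Genes that work with DAZL, ZAR1 and BTG4 were counted next. Of 9 tested genes of the DAZL family, its partners and its reported targets, 4 were higher in H3.3-KD and none lower. Of all genes, 21.8% were higher and 9.12% lower. The median of the 9 was 0.89 against 0.26 for all genes. *Dazap1*, an RNA-binding partner of DAZL, was 1.2 to 1.66 FPKM in control and 28.83 to 32.56 FPKM in H3.3-KD, higher by 3.69. *Tex19.1*, a reported target, was higher by 3.06. *Pum2*, which encodes a repressor that binds 3′ UTRs, was higher by 0.89 (adjusted p = 0.0304), and was not called with either other scaling (adjusted p 0.0976 and 0.283, limma). The 4 calls were 3 with median-ratio scaling and 2 with upper-quartile scaling. In MFN1-KD none of the 9 was called and 4 had an unadjusted p under 0.05 (limma), at a median of 0.35 against -0.08. Of 8 genes of mRNA storage with ZAR1, 3 were higher in H3.3-KD, beside the same 21.8% of all genes. *Lsm14b*, a component of stored mRNA particles, was 0.63 to 1.27 FPKM in control and 6.99 to 12.7 FPKM in H3.3-KD. *Eif4e1b*, the oocyte cap-binding protein, was higher by 1.60 and *Eif4enif1*, which binds such proteins, by 1.00. With upper-quartile scaling *Lsm14b* alone was called, *Eif4e1b* having an adjusted p of 0.0522 and *Eif4enif1* of 0.174 (limma). None was called in MFN1-KD, where 1 had an unadjusted p under 0.05.

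The 5 BTG and TOB genes other than *Btg4* were counted too, and their difference from *Btg4* was not tested. All 5 had log2 differences above 0 in both comparisons, under each scaling. In H3.3-KD 4 were called higher, beside 21.8% of all genes. They were *Btg1* (1.74), *Btg2* (1.78), *Btg3* (1.22) and *Tob2* (1.33), with adjusted p from 0.000556 to 0.0399 (limma). With either other scaling 2 were called, and *Btg3* and *Tob2* were not (adjusted p 0.0649 to 0.165, limma). In MFN1-KD none of the 5 was called and 3 had an unadjusted p under 0.05 (limma), at a median of 0.94 against -0.08 for all genes. Among 20 tested genes of maternal mRNA clearance, 4 were higher and 1 lower in MFN1-KD, beside 1.15% and 2.20% of all genes. *Pan3*, of a poly(A) nuclease, was 73.2 to 108.23 FPKM in control and 195.93 to 245.92 FPKM in MFN1-KD, higher by 1.38 (adjusted p = 0.0342). *Cnot6l*, a catalytic deadenylase subunit, was higher by 1.62 (adjusted p = 0.0409), *Ythdf2*, a reader of methylated mRNA, by 0.98 (adjusted p = 0.044, but 0.0656 and 0.0897 with the other scalings), and *Zfp36l2*, which binds AU-rich elements, by 1.85 (adjusted p = 0.0499), whereas *Cnot8*, another deadenylase subunit, was lower by 1.14 on the log2 scale (-1.14, adjusted p = 0.038). All but *Cnot6l* were named after their values were seen. No clearance gene was called without a filter (23 tested) or with only the 6 libraries compared. None was called with the replicate block, whether or not a GC and length trend was removed. The same held when any one control library or the first or second H3.3-KD library was left out. Without MFN1-KD replicate 3 the count was 1 higher and 1 lower (limma). In H3.3-KD 5 of the 20 were higher and 2 lower, near the 21.8% and 9.12% of all genes, and 2 each with upper-quartile scaling: *Ago2*, the slicing Argonaute, was higher by 2.70, *Cnot3* by 2.39 and *Cnot6l* by 1.50 (adjusted p = 0.00897, but 0.0593 with upper-quartile scaling), whereas *Cnot1*, the scaffold of the complex, had a difference of -1.48 (adjusted p = 0.0024). *Pan3* was lower there (-0.87, adjusted p = 0.0274), and the 2 knockdowns differed in it directly by -2.25 (adjusted p = 0.000168, limma).

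**Figure D4:**
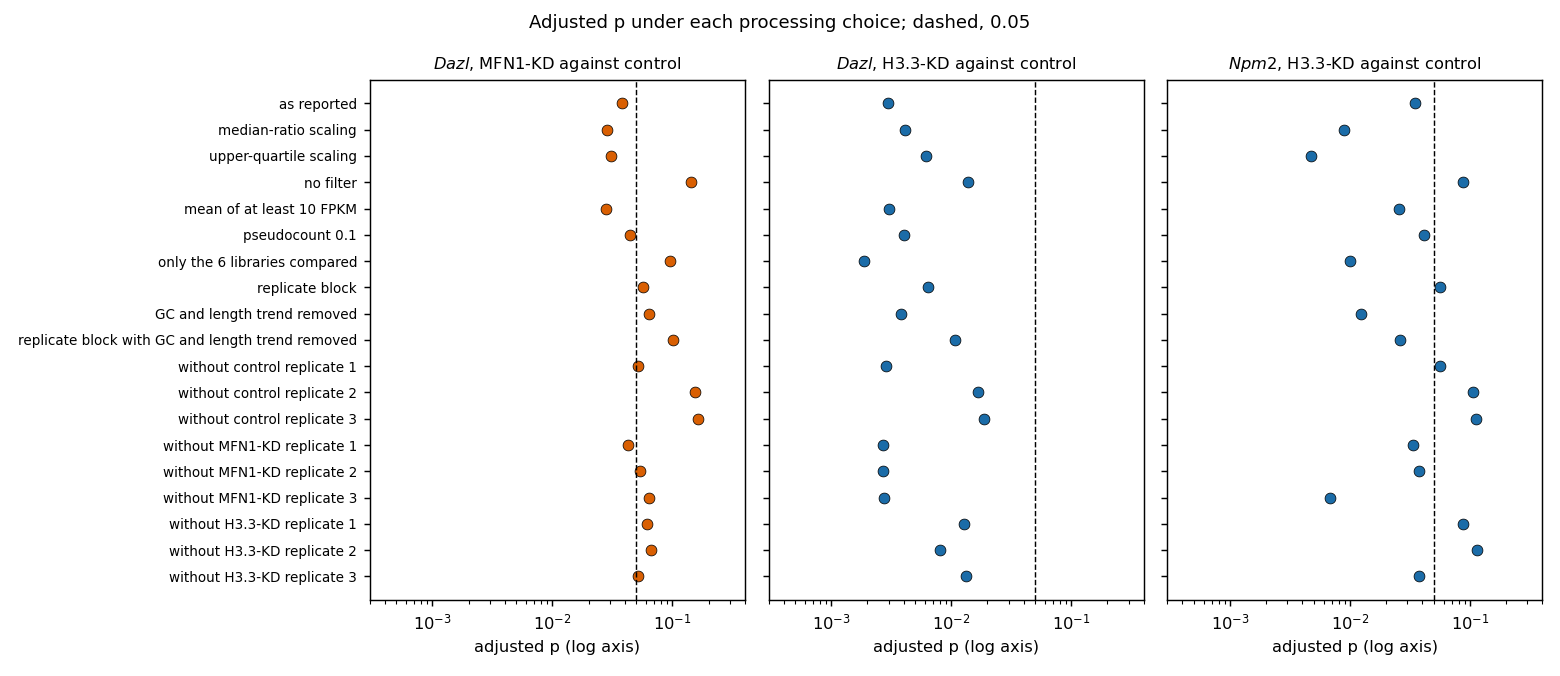
Adjusted p from limma (horizontal log axes) for *Dazl* in both knockdowns and *Npm2* in H3.3-KD under each of the 19 settings named on the vertical axis, with the dashed line at 0.05. *Dazl* in H3.3-KD lies left of the line under all of them, at most 0.0186, while *Dazl* in MFN1-KD reaches 0.162 and *Npm2* 0.114.

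A wider list of 37 other oocyte genes served as the nearest comparison for the set. In MFN1-KD none of the 23 tested was called and 1 had an unadjusted p under 0.05 (limma), and their median was -0.12, beside 0.02 for the 9 members tested and -0.08 for all genes. In H3.3-KD 4 were higher and 2 lower, near the 21.8% and 9.12% of all genes, with a median of 0.43, beside 0.33 for the members and 0.26 for all genes. With upper-quartile scaling these medians were 0.05, -0.08 and -0.15. *Gpr3*, the receptor that keeps the oocyte in meiotic arrest, was 0.6 to 0.9 FPKM in control and 8.67 to 27.41 FPKM in H3.3-KD, higher by 3.28 (adjusted p = 0.000406), *Lsm14b*, also counted above, was higher by 2.36, and *Bcl2l10*, a BCL2 family member, by 1.95 (adjusted p = 0.00989). The remaining gene called higher, *Eif4e1b*, was also counted above. With upper-quartile scaling 3 were higher and 2 lower, and *Eif4e1b* was not called (adjusted p = 0.0522, limma). *Omt2b* was 282.09 to 438.88 FPKM in control and 43.06 to 63.64 FPKM in H3.3-KD (-2.68, adjusted p = 0.000737), and its paralog *Omt2a*, named after its values were seen, was also lower (-1.54, adjusted p = 0.0126), although reads of such close copies may be split between them. Together these 37 genes gave 487.9 to 686.4 FPKM in control, 202.3 to 564.6 FPKM in MFN1-KD and 137.9 to 385.3 FPKM in H3.3-KD, but *Omt2a* and *Omt2b* made up most of that. Without these 2 genes, a sum chosen after the values were seen, it was 80.03 to 89.85 FPKM in control, 36.41 to 113.6 FPKM in MFN1-KD and 69.76 to 248.9 FPKM in H3.3-KD, and the groups overlapped, as those of the 10 members did.

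Across the 9 libraries, the genes of at least 10 FPKM whose log2 levels ran most like *Dazl* were *Gdi2* (Pearson r = 0.974) and *Ppp2r5e* (r = 0.965). For *Npm2* they were *Emg1* (r = 0.965) and *Wdr61* (r = 0.964), for *Zp3* *Cep63* (r = 0.963) and *Mia2* (r = 0.942), and for *Oosp1* *Gm12616* (r = 0.924) and *Gm12614* (r = 0.922). For *Zp2* they were *Rpl17-ps5* and *Pcna-ps2*, both pseudogene entries, for *Btg4* *C86187* and *Snora57*, for *Bmp15* *Gm9117* and *Mindy3*, for *Gdf9* *Gm5580* and *Gm6978*, and for *Zar1* *Gm49207* and *Dynll2*, with r from 0.805 to 0.935. Each is the top of about 5916 genes searched over libraries that share their group means and depth, so r is given as a description.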

How the data were processed

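RNA of pooled 8-cell embryos was sequenced as 150-base paired ends, and 3 groups of 3 libraries were taken from the sample titles. The authors trimmed reads with cutadapt 1.16, aligned them with STAR to mm10, and deposited FPKM per gene with 2 decimals, 1 file per library. The program that made the FPKM, the annotation and the use of strand are not given in the sources used here. The files hold no counts, so depth is unknown and no interval for counting error is given. A value of 0 is written as listed at 0. Smart-Seq2 amplifies by PCR without molecular identifiers, so low values are noisy.

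Members and gene lists were chosen with earlier results of these data known. The 13011 genes whose mean reached 1 FPKM, among them 9 of the 10 members, were fitted with limma 3.58.1 in R 4.3.3 (trend, robust) on log2(FPKM + 1) over all 9 libraries, and called at an adjusted p under 0.05. The script was tested on simulated data. *Mos* was tested alone by an exact permutation test. Named are all members, at most 4 called genes per list by p, defining markers, the targeted genes and the 2 genes most like each member, with exceptions stated in the text; 2 called genes of the lists are counted but not reported here by name. Alternatives were other scalings, filters, a pseudocount of 0.1, only the groups compared, a replicate block, a GC and length trend removed, and each library left out. Shares and percentages without a library, and the clearance genes counted under every setting, were added after seeing the data. Sequences are from RefSeq promoters (GRCm38.p6, 6 members matched) and GENCODE M21.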

Additional observations from a re-analysis of the deposited data

Results flagged for a closer look

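*Zp2* differed between the knockdowns when they were compared directly: the difference of H3.3-KD from MFN1-KD was -1.21 on the log2 scale (limma, adjusted p = 0.0338), with group means of 1.07 FPKM and 3.52 FPKM. H3.3-KD lay below MFN1-KD without overlap of the libraries, as it did for 14.8% of all genes tested. Against the shared control libraries, with a mean of 2.36 FPKM, neither knockdown was called.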

How the results depend on the processing

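In H3.3-KD, *Dazl* was called under all 18 alternatives. In MFN1-KD, *Dazl* alone was called, and the count of members higher was 0 without a filter, with only the 6 libraries compared, with the GC and length trend removed, and with this trend removed in the fit with the replicate block (adjusted p 0.0635 to 0.1435); leaving out 1 library gave 0 to 1. All genes called in MFN1-KD numbered 436, but 2 without a filter, 657 at a mean of at least 10 FPKM, 0 with only the 6 libraries compared (2724 at an unadjusted p under 0.05), 253 with the trend removed, 3 with trend and block, and 0 to 665 with 1 library left out. In H3.3-KD, members lower numbered 1, but 2 with upper-quartile scaling (*Npm2*, *Oosp1*), 0 without a filter, 2 with the trend removed (*Npm2*, *Zp2*) and 0 to 1 with 1 library left out, and members higher 1 to 2. All genes called numbered 4028, but 2590 at a mean of at least 10 FPKM, 2624 with trend and block, and 2432 to 5070 with 1 library left out. Between the knockdowns, members lower numbered 1, but 0 without a filter, at a mean of at least 10 FPKM (which removes *Zp2*) and with only the 6 libraries, 2 with the trend removed with or without the block (*Zp2*, *Zar1*), and 0 to 1 with 1 library left out. Members higher numbered 0 to 1 (*Btg4* without H3.3-KD replicate 1), and all genes called 5028, 2980 at a mean of at least 10 FPKM, 3280 with trend and block, and 3870 to 5121 with 1 library left out. *Mos* could be fitted only without a filter and was not called. The causes were not tested.

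Deviations from group means correlated at -0.0526 to 0.158 for libraries of the same replicate number and -0.116 to 0.072 for different numbers. These ranges overlap, and the highest values, 0.158 and 0.138, came from pairs of the same number. Whether the replicate numbers pair the libraries cannot be decided from so few pairs. With the replicate block, genes called in MFN1-KD numbered 31, members higher in MFN1-KD 0 (*Dazl*, adjusted p = 0.0568) and members lower in H3.3-KD 0 (*Npm2*, adjusted p = 0.0561).

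Directions of members that were not called turned under some settings. In MFN1-KD, *Zp3* was -0.018 at a pseudocount of 0.1 and *Btg4* 0.018 with the trend removed, with or without the block. In H3.3-KD, *Gdf9* was -0.076 with upper-quartile scaling and -0.26 with the trend removed, and *Zar1* -0.10 and -0.95. Between the knockdowns, *Gdf9* was -0.14 and -0.73 and *Zp3* -0.52 with the trend removed, *Dazl* was -0.081 with median-ratio and -0.26 with upper-quartile scaling, and *Oosp1* was -0.12 with the latter. With 1 library left out, *Gdf9* ranged from -0.10 to 0.14, *Zp3* from -0.43 to 0.62 and *Btg4* from -0.53 to 0.30 in MFN1-KD, and *Zar1* from -0.033 to 0.42 and *Btg4* from -0.28 to 1.90 in H3.3-KD. Between the knockdowns, *Bmp15* ranged from -0.63 to 0.65, *Dazl* from -0.11 to 0.70, *Npm2* from -0.44 to 0.15, *Zar1* from -0.38 to 0.089 and *Btg4* from -0.087 to 2.09. The median difference of all genes in H3.3-KD was 0.26 as deposited, 0.0 with median-ratio scaling and -0.15 with upper-quartile scaling, and calls that were higher made up 70.5%, 54.7% and 44.3%; between the knockdowns they made up 71.4%, 56.2% and 48.0%.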
